A study of Mus musculus with 6 samples.

Results

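Expression was examined for 10 genes through which astrocytes build and remove synapses, namely Thbs1, Thbs2, Thbs4, Gpc4, Gpc6, Chrdl1, Nlgn1, Nlgn2, Megf10 and Mertk. Members were the probes that the platform annotation assigns to these symbols: 10 of 19321 named genes, and 12 of the 23473 probes on the array. Of these, 8 genes had 1 probe each, and Gpc4 and Megf10 had 2 each. All cells were C57BL/6J astrocytes of newborn (P0) mouse cortex with floxed Chd7, the gene of a chromodomain helicase that remodels chromatin. The Cre group (labelled Chd7 KD) received a Cre lentivirus and the control group a control lentivirus, with 3 arrays in each. The medium of both held FGF2, EGF, B-27 and FBS (10%), and cells were taken 3 days after infection. No source used here names the promoter that drives Cre. Cre went only into cultures with floxed Chd7, and an effect of the recombinase itself and one of losing Chd7 cannot be told apart.

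Astrocytes instruct neurons through secreted and surface proteins. Thrombospondins, the products of the Thbs genes, are matrix glycoproteins that act on the neuronal calcium channel subunit Cacna2d1 and make structurally complete but silent synapses. Glypicans (Gpc4, Gpc6), heparan sulphate proteoglycans shed from the astrocyte surface, bring AMPA receptors to such synapses, and the BMP antagonist Chrdl1 promotes their maturation. Neuroligins (Nlgn1, Nlgn2) bind neurexins across the contact, and Megf10 and Mertk are phagocytic receptors with which astrocytes engulf synapses.

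The Chd7 probe M300016343 read 8, 7 and 8 in Cre cultures, against 42, 89 and 46 in control cultures, in the authors' linear units (array medians of 25). Its groups did not overlap, with a log2 difference of -1.13 (SE 0.16, limma adjusted p = 0.399 over 20747 probes). The size of that difference depended on the background correction, at -2.86 in the authors' values, -2.71 with plain subtraction of the blank mean, -1.82 with a normexp offset of 16 and -0.52 with the local background column. A dimmer Chd7 probe, M400002483, read 9, 6 and 11 in Cre cultures, against 11, 13 and 14 in control cultures, and gave -0.11 (SE 0.06, limma adjusted p = 0.999), with overlapping groups in log2 units. Between 83.7 and 87.6% of probes on the Cre arrays and between 87.6 and 90.7% on the control arrays lay above background, a limit set 2 SD over the blank spots' mean. All 16 astrocyte markers of a fixed list were above background on all 6 arrays, at summed levels of 6998 to 8880 units in Cre and 5352 to 9560 units in control cultures. While these sums overlapped, 14 of the 16 markers were higher and 2 lower in Cre cultures on the log2 scale, with a median difference of 0.18, against -0.00017 over all 17285 genes tested. Of the 16, 5 had an unadjusted p under 0.05, all higher in Cre cultures and led by Hepacam (0.32, SE 0.05) and Aqp4 (0.31, SE 0.06), against 5.82% of all genes, and 0 passed when adjusted. The part of this shift in the members' values was not tested. In a bulk sample, fewer cells of a type and less RNA per cell cannot be told apart.

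None of the 12 probes separated the viruses. In limma, 0 of 12 passed an adjusted p of 0.05, as did 0 of all 20747 probes tested (0%), and 0 of 12 had an unadjusted p under 0.05, against 5.59% of all probes (2.75% higher and 2.83% lower in Cre cultures). The Cre and control arrays overlapped for all 12 probes, while they did not overlap for 10.5% of all probes. Of the 12, 6 were higher and 6 lower in Cre cultures, with differences between -0.16 and 0.25 on the log2 scale and a median of 0.008, against -0.00057 over all probes. All 12 lay above background on all 6 arrays. The numbers of the replicates, which both groups share, paired the arrays: same-numbered arrays deviated from their group means together. Blocking on that number gave an unadjusted p under 0.05 for 3 of 12, against 9.32% of all probes: Thbs1 and Mertk higher (4.52% of all probes) and Nlgn1 lower (4.8%) in Cre cultures. In the blocked fit 0 of 12 passed when adjusted, as did 0% of all probes. The 3 pairs had the same sign for 4 of 12 probes (Thbs1, Gpc4 M200000621 and Mertk higher, Nlgn1 lower), against 30% of all probes.

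**Figure D1:**
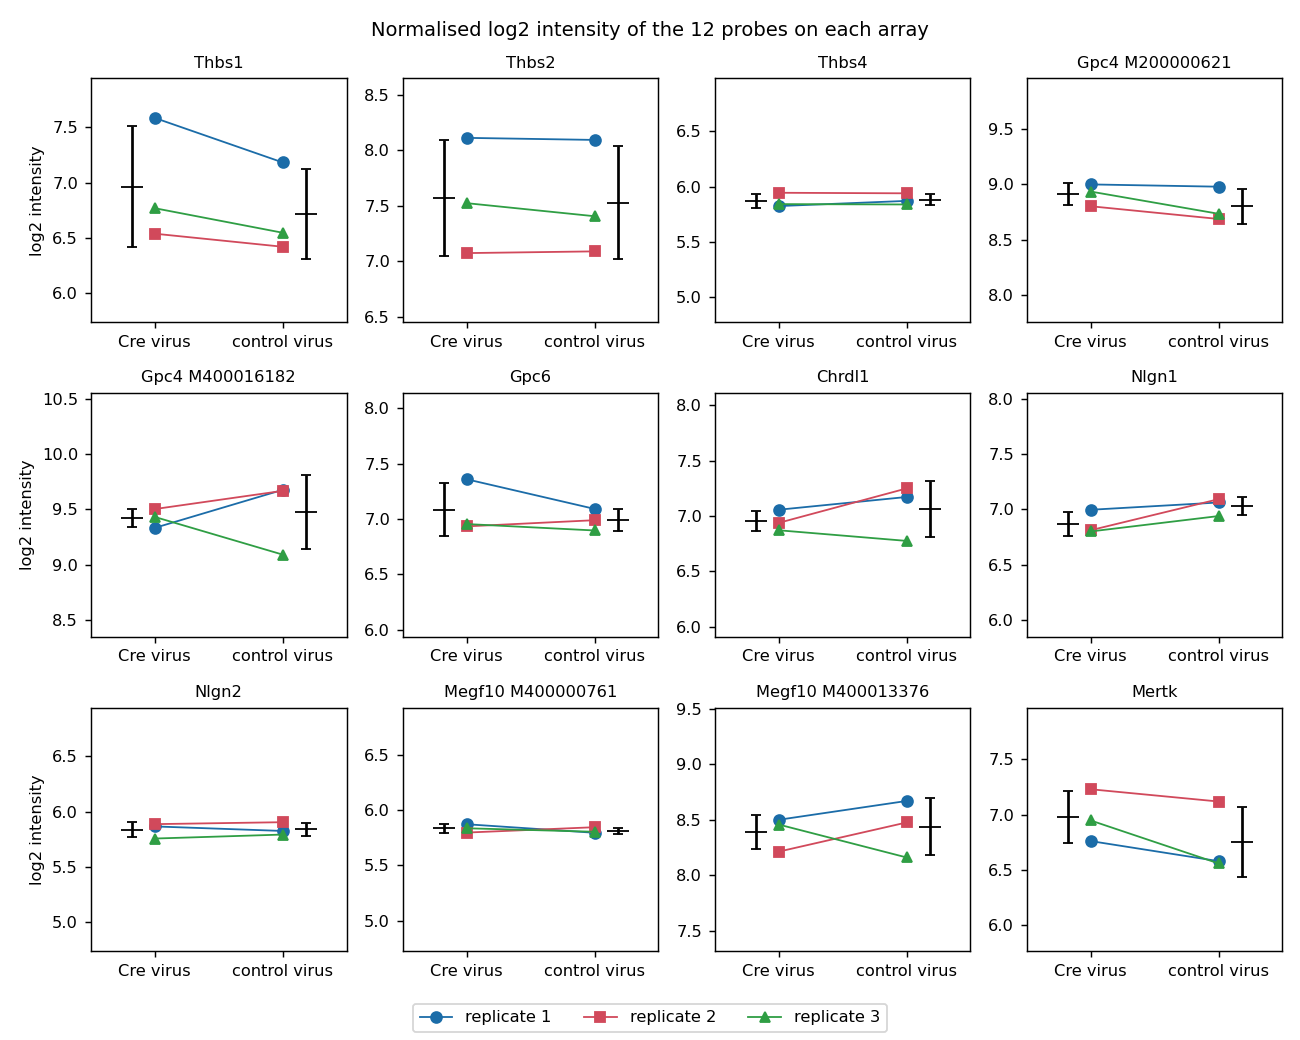
Normalised log2 intensity (vertical axes, each spanning 2.2 log2 units) of every probe on each array. Cre virus arrays stand on the left and control virus arrays on the right, lines join arrays of the same replicate number, and black bars give the mean and SD of 3 arrays. Thbs1 and Thbs2 keep the order replicate 1, 3, 2 in both groups, and no probe has all Cre arrays on 1 side of all control arrays.

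Of the secreted thrombospondins, Thbs1 and Thbs2 were the members whose levels spanned most between replicate numbers. Thbs1 stood at 7.58, 6.54 and 6.77 log2 units in Cre replicates 1, 2 and 3, against 7.18, 6.42 and 6.55 in control replicates 1, 2 and 3. Its level followed the replicate number, highest in number 1 and lowest in number 2 with either virus, and the Cre array was the higher one in 3 of 3 pairs, by 0.40, 0.12 and 0.22. In the authors' linear values Thbs1 read 84, 23 and 34 in Cre cultures, against 56, 23 and 27 in control cultures. Replicate 2 was equal in both there. On that scale the median difference of all probes was -0.17, and relative to it the Thbs1 difference was 0.47. In the log2 values used here the group difference was 0.25 (SE 0.33, 95% interval -0.58 to 1.08, limma adjusted p = 0.999). That interval reaches 2.11-fold higher. With the replicate block the same difference had an SE of 0.069, and it did not pass (limma adjusted p = 0.455). Its interval under this background correction was 0.05 to 0.44, or 1.04-fold to 1.36-fold higher. Without Cre replicate 1 the unblocked difference changed sign, at -0.06.

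Thbs2, the closest relative of Thbs1 among the thrombospondins, stood at 8.11, 7.07 and 7.52 in Cre replicates 1 to 3, against 8.09, 7.09 and 7.41 in control replicates 1 to 3. Same-numbered arrays were nearly level, differing by 0.02, -0.02 and 0.12, and the order of the numbers was that of Thbs1. The group difference was 0.04 (SE 0.36, 95% interval -0.85 to 0.93, limma adjusted p = 0.999). Blocked by replicate number, the SE was 0.045 and the interval -0.09 to 0.17, so that a rise of more than 1.12-fold or a fall of more than 1.06-fold lay outside it under this background correction. With the local background column the Thbs2 difference was 0.50, beyond that interval. The authors' values for Thbs2 were 133, 43 and 78 in Cre cultures, against 130, 58 and 74 in control cultures. Leaving out 1 array moved the unblocked Thbs2 difference between -0.23 (without Cre replicate 1) and 0.32 (without control replicate 1), with both signs.

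Averaged over the viruses, the replicate numbers spanned 1.02 log2 units (2.03-fold) for Thbs2 and 0.90 (1.87-fold) for Thbs1. A span at least as wide was found for 139 of the 20747 probes (0.67%) in the case of Thbs2 and for 189 (0.911%) in the case of Thbs1. Over all probes the median span was 0.12, and for 80% of them it exceeded the difference between the viruses, as it did for 10 of the 12 members. Highest in replicate 1 with both viruses were 5 of the 12 probes (Thbs1, Thbs2, Gpc6, Gpc4 M200000621 and Megf10 M400013376), against 11.9% of all probes, and highest in replicate 2 with both were 3 (Mertk, Nlgn2 and Thbs4), against 16.3%.

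Fibroblasts and mural cells also secrete thrombospondins, and some genes on a marker list for them moved with the replicate number as well. Which cells of these cultures, astrocytes included, carried these transcripts was not measured. Of the 12 markers measured, 6 were highest in replicate 1 with both viruses, against 11.9% of all probes. The median span of the 12 over the numbers was 0.70 log2 units. Lum and Rgs5 were highest in replicate 3 with both viruses, while Des, Kcnj8 and Abcc9 spanned only 0.03, 0.07 and 0.02. The collagen gene Col1a2 stood at 9.45, 6.94 and 8.92 in Cre replicates 1 to 3, against 9.92, 7.29 and 8.64 in control replicates 1 to 3. Col3a1 stood at 8.72, 6.39 and 7.92 in Cre, against 9.34, 6.67 and 8.27 in control replicates. All fibroblast and mural cell markers named here other than Des are named after their values were seen. The 12 markers summed to 15566, 9189 and 12141 authors' units in Cre replicates 1 to 3, against 17308, 12930 and 12075 in control replicates 1 to 3. The brightest were Acta2 (12.96 to 13.98 log2 units) and Tagln (12.70 to 13.46). No other marker exceeded 9.92, so that Acta2 and Tagln weigh most in the sums. Of the 12 markers, 9 were above background on all 6 arrays. Their part in the Thbs1 and Thbs2 values was not tested.

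**Figure D2:**
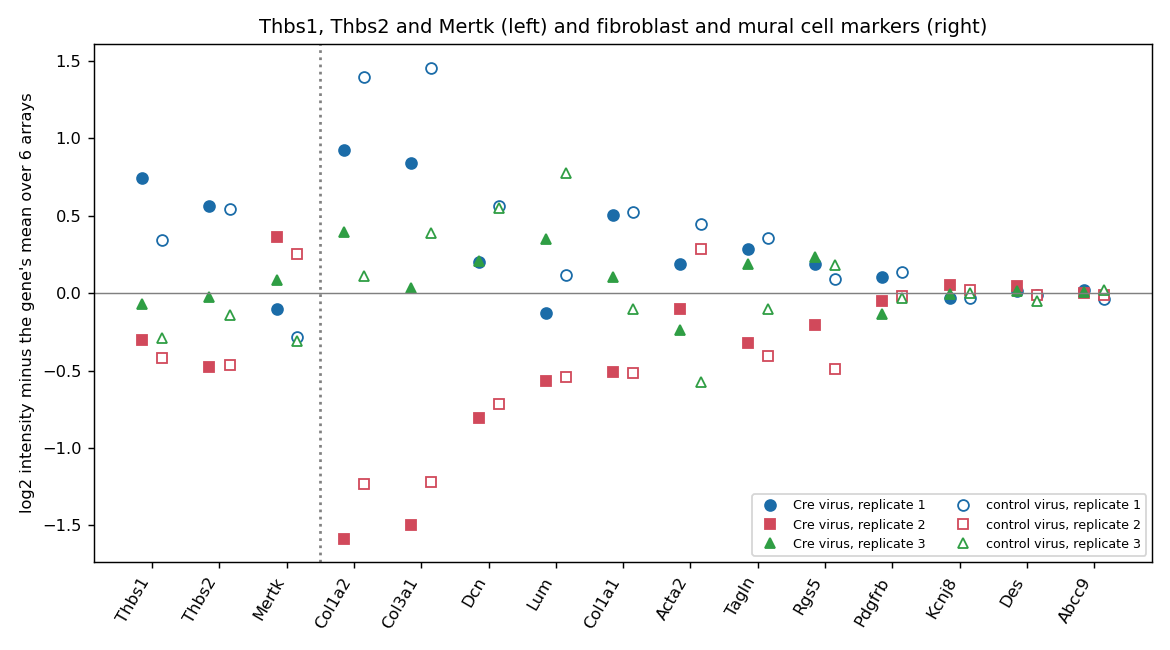
Log2 intensity of each array minus the gene's mean over 6 arrays (vertical axis) for Thbs1, Thbs2 and Mertk, left of the dotted line, and for 12 fibroblast and mural cell markers ordered by their span over replicate numbers. Filled symbols are Cre virus arrays and open symbols control virus arrays; replicate 1 lies on top for Thbs1, Thbs2, Col1a2 and Col3a1 in both groups, and replicate 2 for Mertk.

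The 250 bases before the RefSeq start of Thbs2 (chr17:14694263-14694512 of GRCm38.p6, minus strand) are shown because this gene moved most with the replicate number. Capitals mark matches on either strand to the letters of a TATA box (TATAAA) or a CCAAT box (CCAAT).
Thbs2: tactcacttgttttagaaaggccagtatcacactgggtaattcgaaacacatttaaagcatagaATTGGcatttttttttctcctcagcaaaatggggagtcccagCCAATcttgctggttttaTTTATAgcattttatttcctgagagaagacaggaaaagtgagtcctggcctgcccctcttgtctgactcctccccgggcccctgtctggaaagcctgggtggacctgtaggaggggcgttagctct
The window held CCAAT letters at 2 places, starting 186 and 144 bases before the start, and TATA letters 126 bases before it. Of 32851 RefSeq windows of this length, 33.8% held CCAAT and 12.4% TATAAA; no match was found in the Thbs2 window to a GC box (GGGCGG, in 32.7% of windows), an E-box (CACGTG, 6.02%), an AP-1 element (TGANTCA, 6.75%), a SMAD element (GTCTAGAC, 0.167%) or the CArG box (1.47%). Its GC content was 46.8%, against a median of 52.4%. Windows were found for 6 of the 10 genes. A link between this sequence and the replicate number was not tested.

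Thbs4, the thrombospondin best known from muscle and tendon and from activated astrocytes, lay close to background. Its spots read at most 1.16 times the blank mean on Cre arrays and 1.21 times on control arrays. The log2 values were 5.82, 5.94 and 5.84 in Cre replicates, against 5.87, 5.94 and 5.84 in control replicates, with replicate 2 the highest in both. The difference was -0.01 (SE 0.05, limma adjusted p = 0.999). A narrow interval this near the blanks limits the change in signal only, since the background correction compresses the fold changes of dim probes.

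The glypicans showed no common direction. Gpc4 had a pair of probes of unlike sign: M200000621 stood at 8.999, 8.80 and 8.93 in Cre cultures, against 8.98, 8.69 and 8.73 in control cultures, a difference of 0.11 (SE 0.10). M400016182, designed to a predicted transcript, stood at 9.33, 9.50 and 9.43 in Cre cultures, against 9.68, 9.67 and 9.09 in control cultures, a difference of -0.06 (SE 0.17). The first probe was higher in the Cre array of 3 of 3 pairs (0.02, 0.11 and 0.20), the second in 1 of 3 (-0.34, -0.16 and 0.34), and neither passed (limma adjusted p = 0.999 for both). For M400016182 the spread lay in the control arrays (SD 0.33, n = 3) more than in the Cre arrays (SD 0.09, n = 3), with control replicate 3 the lowest of the 6. Without that array the difference was -0.25, and without control replicate 1 it was 0.04. For M200000621 the replicate block gave an interval of -0.03 to 0.26, narrower than -0.12 to 0.35 without it.

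Gpc6 stood at 7.36, 6.93 and 6.95 in Cre cultures, against 7.09, 6.99 and 6.90 in control cultures. Cre replicate 1 was the highest of the 6, and the other Cre arrays both fell between the highest and the lowest control array. The difference was 0.09 (SE 0.13, 95% interval -0.23 to 0.41, limma adjusted p = 0.999), and without Cre replicate 1 it was -0.05.

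Chrdl1, on the X chromosome like Gpc4, stood at 7.06, 6.94 and 6.87 in Cre cultures, against 7.17, 7.25 and 6.77 in control cultures. Control replicates 1 and 2 were above all Cre arrays and control replicate 3 below them. The difference was -0.11 (SE 0.14, 95% interval -0.45 to 0.23, limma adjusted p = 0.999), while leaving out 1 array gave -0.25 (without control replicate 3) to -0.02 (without control replicate 2). In the authors' linear values Chrdl1 read 50, 38 and 39 in Cre cultures, against 56, 69 and 37 in control cultures.

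Of the adhesion molecules, Nlgn1 had the smallest p of the 12 probes. It stood at 6.996, 6.81 and 6.80 in Cre replicates 1 to 3, against 7.06, 7.09 and 6.94 in control replicates 1 to 3. The groups overlapped through Cre replicate 1 alone, and the Cre array was the lower one in 3 of 3 pairs, by -0.07, -0.28 and -0.14. The difference was -0.16 (SE 0.07, 95% interval -0.34 to 0.02), and it did not pass (limma adjusted p = 0.934, or 0.534 with the replicate block). The direction was the same under all 14 alternatives run, between -0.41 in the authors' values and -0.13. On the authors' linear scale Nlgn1 read 47, 32 and 36 in Cre cultures, against 49, 58 and 45 in control cultures. On that scale every array has a median of 25, but the median of the log2 differences of all probes tested was -0.17. Relative to that median difference the Nlgn1 difference was -0.25.

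RefSeq lists Nlgn1 with a pair of starts in the windows used here, both shown because this gene led the list. The 250 bases before each are given 5′ to 3′ on the minus strand of GRCm38.p6, from chr3:26331910-26332159 and chr3:26153987-26154236, with capitals for a CCAAT box.
Nlgn1 outer start: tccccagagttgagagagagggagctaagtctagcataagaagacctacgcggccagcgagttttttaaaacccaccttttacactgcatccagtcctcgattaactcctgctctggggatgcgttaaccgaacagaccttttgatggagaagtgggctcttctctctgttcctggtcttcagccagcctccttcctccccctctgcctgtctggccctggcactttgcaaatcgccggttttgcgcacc
Nlgn1 inner start: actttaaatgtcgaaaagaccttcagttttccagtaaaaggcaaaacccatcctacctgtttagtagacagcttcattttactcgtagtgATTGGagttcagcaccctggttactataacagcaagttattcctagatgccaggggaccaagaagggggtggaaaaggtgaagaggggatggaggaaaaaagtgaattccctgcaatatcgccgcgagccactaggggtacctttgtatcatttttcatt
The outer window held none of the 7 motifs searched and the inner window held CCAAT letters alone, on the other strand, 160 bases before the start. GC content was 53.6% in the outer and 43.6% in the inner window. Which start these cultures used was not measured.

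Nlgn2, the neuroligin of inhibitory synapses, lay near background. Its spots were 1.05 to 1.13 times the blank mean on Cre arrays and 1.07 to 1.19 times on control arrays. Nlgn2 read 5.87, 5.89 and 5.76 log2 units in Cre cultures, against 5.83, 5.90 and 5.79 in control cultures, with the groups interleaved. The difference was -0.0042 (SE 0.05, limma adjusted p = 0.999).

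Megf10, which binds the complement protein C1q on material to be cleared, had a bright and a dim probe of the same transcript. M400013376 stood at 8.50, 8.21 and 8.46 in Cre cultures, against 8.67, 8.48 and 8.16 in control cultures. The Cre array was lower in replicates 1 and 2 (-0.17 and -0.26) and higher in replicate 3 (0.30), and the difference was -0.05 (SE 0.15, 95% interval -0.42 to 0.33, limma adjusted p = 0.999). The dim probe M400000761, with spots 1.07 to 1.13 times the blank mean on Cre arrays and 1.08 to 1.14 times on control arrays, gave 0.02 (SE 0.04). Without control replicate 3 the bright probe stood at -0.18, and without control replicate 1 at 0.07.

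Mertk, a receptor tyrosine kinase that recognises phosphatidylserine through the bridging proteins Gas6 and Pros1, stood at 6.76, 7.23 and 6.95 in Cre replicates 1 to 3, against 6.58, 7.12 and 6.56 in control replicates 1 to 3. Replicate 2 was the highest with both viruses, and the Cre array was the higher one in 3 of 3 pairs, by 0.18, 0.11 and 0.39. The difference was 0.23 (SE 0.19, 95% interval -0.26 to 0.71, limma adjusted p = 0.999), and with the replicate block its interval was 0.03 to 0.42 (limma adjusted p = 0.488). Leaving out 1 array gave 0.10 (without Cre replicate 2) to 0.41 (without control replicate 2). In the authors' linear values Mertk read 35, 51 and 43 in Cre cultures, against 27, 60 and 27 in control cultures. Replicate 2 had the opposite order there. On that scale the median difference of all probes was -0.17, and relative to it the Mertk difference was 0.44. With the scanner's local background column in place of the blank spots, Mertk stood at -0.30. Microglia express Mertk too, and the summed markers of microglia and macrophages (16 of 18 measured, 13 of them above background on all arrays) were 392 to 640 authors' units in Cre cultures and 669 to 1034 in control cultures. On the log2 scale 4 of these 16 markers were higher and 12 lower in Cre cultures (median -0.14), and at an unadjusted p under 0.05 stood 1 higher and 5 lower. The smallest p belonged to C1qa, at -0.67 (SE 0.11), and to the lysosomal marker Cd68, which was higher in Cre cultures at 0.48 (SE 0.08, limma adjusted p = 0.408), with no overlap. Their part in the Mertk values was not tested.

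The Mertk window (chr2:128698665-128698914 of GRCm38.p6, plus strand) is shown for comparison with Thbs2, since the 2 genes peaked in different replicates. Capitals mark the letters of a GC box on the other strand.
Mertk: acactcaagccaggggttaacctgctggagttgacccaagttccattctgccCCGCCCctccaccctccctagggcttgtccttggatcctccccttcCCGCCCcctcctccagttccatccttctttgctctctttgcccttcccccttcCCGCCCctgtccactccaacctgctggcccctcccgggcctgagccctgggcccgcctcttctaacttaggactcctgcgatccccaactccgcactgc
GC box letters occurred at 3 places in the Mertk window, starting 198, 152 and 99 bases before the start, and none of the other motifs was found. Its GC content was 63.6%. Any link between the letters of the Mertk or Thbs2 window and the replicate numbers was not tested.

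**Figure D3:**
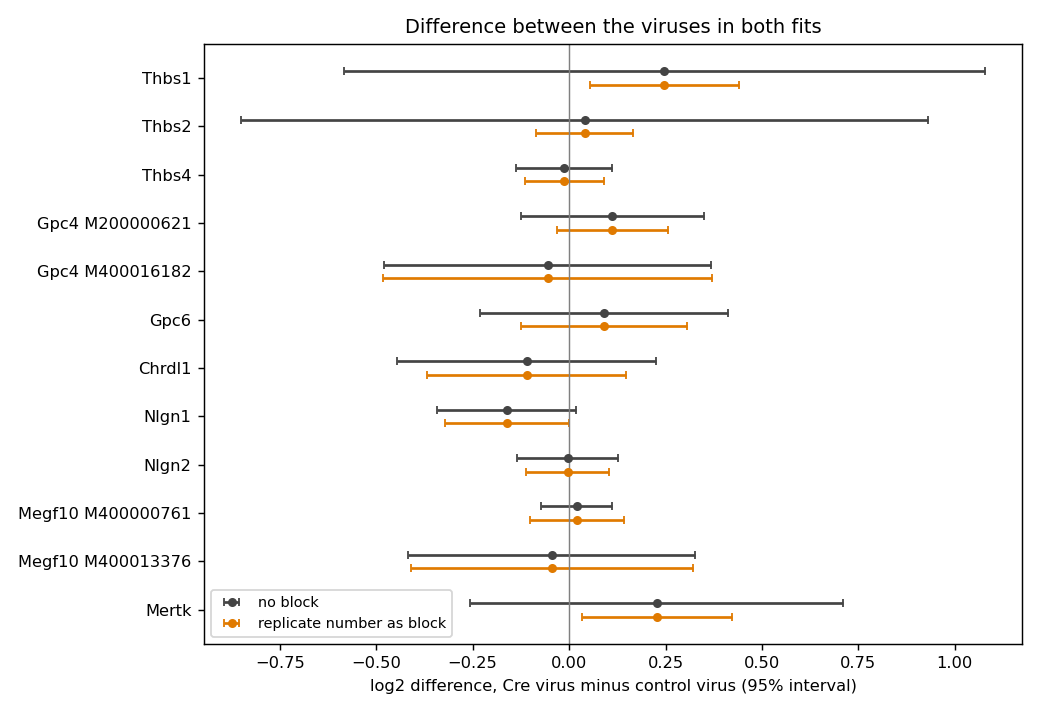
Log2 difference, Cre virus minus control virus, with 95% intervals (horizontal axis) for the 12 probes, without a block (grey) and with the replicate number as a block (orange). The blocked intervals of Thbs1 and Mertk lie above 0 and that of Nlgn1 ends at -0.0015, while every unblocked interval includes 0.

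Genes that act with the members were grouped into 3 lists. Of the other secreted or surface synapse factors, 16 of 18 were measured, 12 higher and 4 lower in Cre cultures, with a median of 0.06 against -0.00017 over all 17285 genes tested. At an unadjusted p under 0.05 there was 1 (Tgfb2), against 5.82% of all genes, and 0 passed when adjusted. With the block 4 had such an unadjusted p, against 9.67%, and the groups did not overlap for 3, against 10.6%. The growth factor gene Tgfb2 stood at 7.66, 7.89 and 7.95 in Cre cultures, against 7.52, 7.52 and 7.64 in control cultures, a difference of 0.28 (SE 0.09, limma adjusted p = 0.764), with no overlap. Next by p were the glypican gene Gpc1 at 0.11 (SE 0.05), Thbs3 at 0.09 (SE 0.05) and the neurotrophin gene Bdnf at -0.28 (SE 0.18). For these genes the groups of Gpc1 alone did not overlap.

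Among receptors and adhesion partners, 18 of 20 were measured, 8 higher and 10 lower in Cre cultures, with a median of -0.0013. Unadjusted p-values under 0.05 were found for 3 (against the same 5.82%), and 0 passed when adjusted. With the block 5 of 18 had such an unadjusted p, against 9.67%, and 0 passed when adjusted. Nrxn2, one of the neurexins that neuroligins bind, stood at 8.87, 9.06 and 8.57 in Cre cultures, against 9.54, 9.36 and 9.30 in control cultures, a difference of -0.56 (SE 0.14, limma adjusted p = 0.634) with the same sign in 3 of 3 pairs. The receptor phosphatase genes Ptprs, whose product binds Gpc4, and Ptprf stood at 0.38 (SE 0.12) and 0.25 (SE 0.10), neither with overlap between the groups. Mdga2, whose product blocks neuroligins from neurexins, stood at -0.24 (SE 0.13). The thrombospondin receptor gene Cacna2d1, named after its value was seen, was lower in 3 of 3 pairs, by -0.26, -0.35 and -0.25. Its difference was -0.29 (SE 0.16) with overlapping groups, and it did not pass (limma adjusted p = 0.999, or 0.393 with the replicate block).

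Among engulfment partners, 22 of 23 were measured, 10 higher and 12 lower in Cre cultures, with a median of -0.00038. At an unadjusted p under 0.05 stood 7 of 22, again against 5.82% of all genes, and 0 passed when adjusted. With the block these were 8 of 22, against 9.67% of all genes, and 0 passed when adjusted. The bridging protein gene Mfge8 stood at 9.90, 9.74 and 9.81 in Cre cultures, against 9.31, 9.48 and 9.53 in control cultures, a difference of 0.38 (SE 0.08, limma adjusted p = 0.537). The phagocytic adaptor gene Gulp1 stood at 9.07, 9.10 and 9.02 in Cre cultures, against 9.24, 9.43 and 9.35 in control cultures, at -0.28 (SE 0.06, limma adjusted p = 0.580), while a dimmer Gulp1 probe read near 0. In neither gene did the groups overlap.

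The complement genes C1qa at -0.67 (SE 0.11) and C1qb at -0.71 (SE 0.17) were among the 4 smallest p. C1qa, C1qb, C1qc and Trem2 are on the microglia list as well; without them 4 of 18 stood at an unadjusted p under 0.05, with a median of 0.06. The last of the 7, named after their values were seen, were C1qc at -0.37 (SE 0.10), the Rac regulator Elmo2 at 0.38 (SE 0.11) and the Mertk ligand gene Gas6 at 0.55 (SE 0.17). Gas6 stood at 8.54, 8.65 and 9.07 in Cre cultures, against 7.99, 8.26 and 8.37 in control cultures, with no overlap (limma adjusted p = 0.749). Pros1, the other Mertk ligand gene, stood at 0.16 (SE 0.12). Axl, a receptor of the Mertk family, stood at 0.45 (SE 0.27), with the Cre array higher in 3 of 3 pairs. With the replicate block the SE of Axl was 0.064, and it did not pass (limma adjusted p = 0.393). Tyro3, the other receptor of that family, stood at 0.09 (SE 0.08), with the Cre array higher in 2 of 3 pairs. Pros1, Axl and Tyro3 are named after their values were seen.

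**Figure D4:**
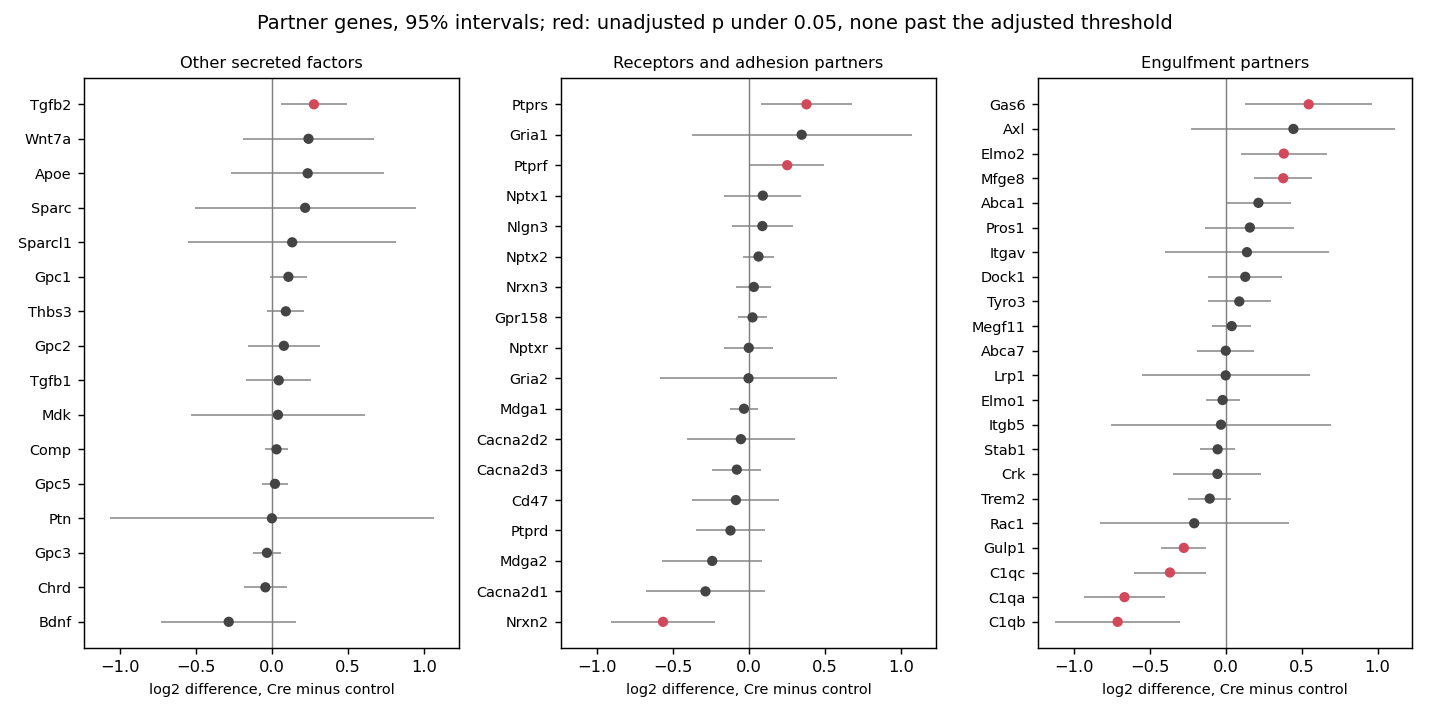
Log2 difference, Cre virus minus control virus, with 95% intervals (horizontal axes) for 16 other secreted factors, 18 receptors and adhesion partners and 22 engulfment partners, each panel ordered from higher to lower in Cre cultures. Red marks an unadjusted p under 0.05 (1, 3 and 7 genes); none passed when adjusted.

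**Figure D5:**
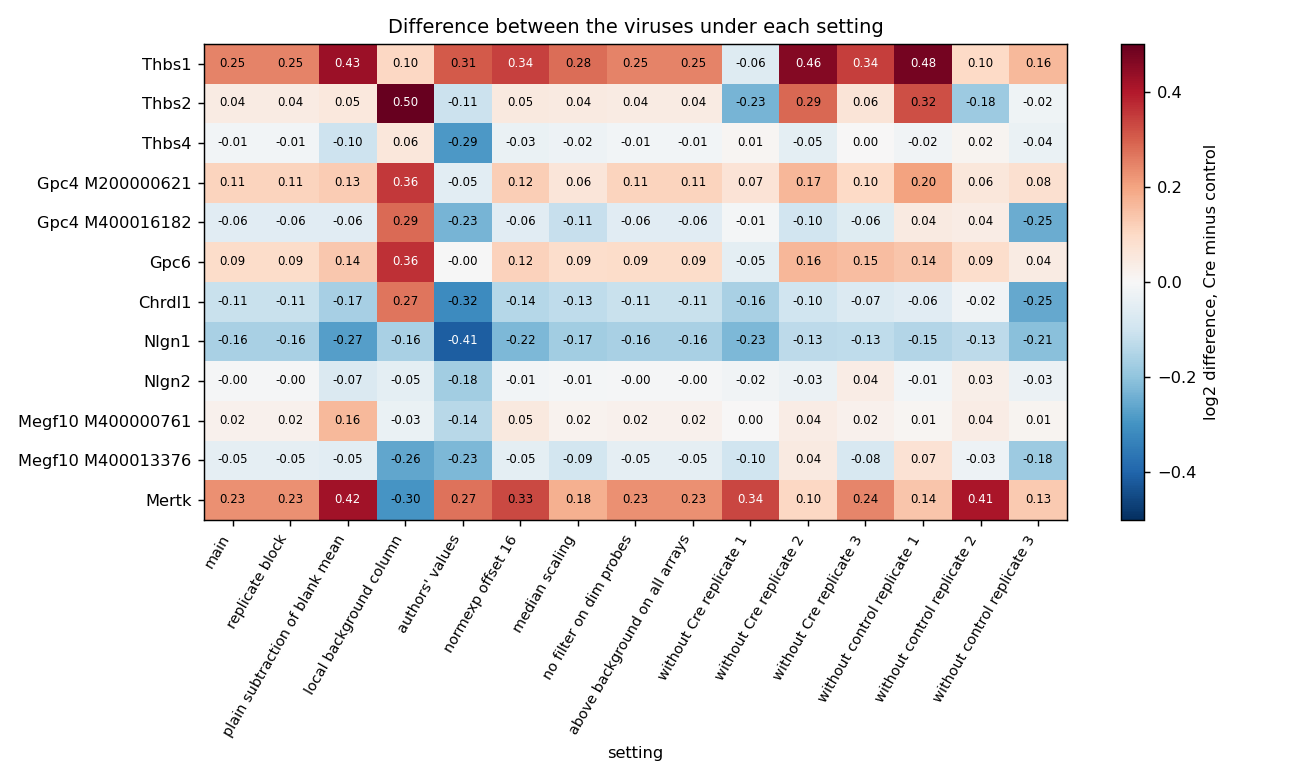
Log2 difference, Cre virus minus control virus (colour and printed value), of the 12 probes (down) under the reported setting, labelled main, and the 14 alternatives (across). Nlgn1 is below 0 in every column, Thbs1 is above 0 except without Cre replicate 1 and Mertk except with the local background column.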

How the data were processed

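Total RNA of 6 samples was amplified, labelled with Cy5 and hybridised to 1-colour arrays, per the labels' protocols. The scanner files deposited by the authors hold a median intensity and a local background intensity per spot, per the file headers. The authors also deposited a table of linear intensity values with empty cells (1609 to 3178 per array) and a median of 25 in every column; the steps behind it are not given in the sources used here.

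Spots with a scanner mark were left out, and intensities were corrected by normexp against 2736 blank spots (limma's nec, offset 50), quantile normalised and set on a log2 scale, unlike the authors' deposited linear values. Probes above background (blank mean plus 2 SD) on at least 3 arrays were kept (20747 of 23473). Groups were compared with limma 3.58.1 in R 4.3.3 (lmFit, eBayes, two-sided, Benjamini-Hochberg over all kept probes, threshold 0.05); the script was tested on simulated data. An exact permutation test of 3 against 3 arrays cannot go below p = 0.1.

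Probe symbols came from the platform annotation (20690 with 1 symbol, 0 with several, 2783 unnamed here), of which 20556 matched RefSeq's table and 0 changed. The brightest kept probe stood for a gene outside the members. Named genes were every member probe, up to 4 genes of each partner list and 2 of each marker list by smallest p, and Chd7, where they bear on a member; others are marked. Members, lists and tests were chosen with earlier results of these data known. The labels do not say whether replicates are separate cultures, and the p-values therefore reflect only how far these arrays differ, possibly for technical reasons. Arrays of one number deviated together from their group means (r = 0.498, 0.425 and 0.436). They were treated as pairs only in the pair differences and in the fit with the replicate block. All other SEs, intervals and p-values come from the fit without a block. The labels state no shared litter, culture or day. Promoter sequences are RefSeq's for GRCm38.p6. At an unadjusted p under 0.05, against 5.82% of all genes, the marker lists gave 5 of 16 genes for astrocytes (5 higher in Cre cultures), 6 of 16 for microglia (1 higher, 5 lower), 3 of 14 for neurons (2 higher, 1 lower), 0 of 11 for oligodendrocytes, 0 of 12 for fibroblasts and mural cells and 1 of 7 for endothelium (higher); 0 passed when adjusted.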

Additional observations from a re-analysis of the deposited data

How the results depend on the processing

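Adjusted p-values called 0 probes and 0 members under each alternative run, and no member's adjusted p was below 0.455. At an unadjusted p under 0.05 all probes numbered 1934 with the replicate block, 1846 in the authors' values and 617 with median scaling, against 1159 as reported, and members numbered 3 with the block (adjusted p of 0.455 to 0.534) and 1 with the local background column (Gpc6). With 1 array left out, those counts were 864 to 1386 for all probes and 0 to 3 for members, the 3 without control replicate 3 (Nlgn1, Chrdl1 and Gpc4 M400016182). The block moved no difference and changed no adjusted call. With the local background column 5 member probes changed sign: Thbs4 (0.055), Gpc4 M400016182 (0.29), Chrdl1 (0.27), Megf10 M400000761 (-0.035) and Mertk (-0.30), and so did the dim Chd7 probe M400002483 (0.044). With the same column Thbs2 stood at 0.50, Gpc6 at 0.36 and Gpc4 M200000621 at 0.36. In the authors' values Thbs2 (-0.11), Gpc4 M200000621 (-0.052), Gpc6 (-0.0032) and Megf10 M400000761 (-0.14) changed sign. The median difference of all probes on that scale was -0.17. The cause of these changes was not tested. Leaving out 1 array gave ranges of -0.063 to 0.48 for Thbs1, -0.23 to 0.32 for Thbs2, -0.050 to 0.015 for Thbs4, -0.25 to 0.043 for Gpc4 M400016182, -0.048 to 0.16 for Gpc6, -0.25 to -0.018 for Chrdl1, -0.23 to -0.13 for Nlgn1, -0.029 to 0.036 for Nlgn2, -0.18 to 0.072 for Megf10 M400013376, 0.10 to 0.41 for Mertk and 0.056 to 0.20 for Gpc4 M200000621. The median of the other secreted factors was 0.14 with plain subtraction, 0.033 with the local background and -0.026 in the authors' values. It was 0.029 to 0.074 with 1 array left out. That of receptors was 0.083 with the local background and -0.13 in the authors' values. That of engulfment partners was 0.047 with the local background, -0.12 in the authors' values and -0.029 to 0.062 with 1 array left out. Over all probes the median difference was 0.032 with the local background and -0.17 in the authors' values. Relative to the median of all probes, the secreted factors stood at 0.14 with plain subtraction, 0.00014 with the local background and 0.14 in the authors' values. With the local background and in the authors' values, receptors stood at 0.050 and 0.035 on that footing, and engulfment partners at 0.015 and 0.043. Signal over background limits Thbs4, Nlgn2 and Megf10 M400000761 most. With plain subtraction of the blank mean, Thbs1 stood at 0.43, Mertk at 0.42 and Nlgn1 at -0.27. As reported they stood at 0.25, 0.23 and -0.16, so that the size of these differences also depended on the background correction.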
